A study of Mus musculus with 80 samples.

Results

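The genes of the contractile apparatus of striated muscle were described here in muscle stem cells (MuSCs) of extraocular (EOM) and tibialis anterior (TA) muscle of the mouse, before and after transplantation. Members were taken by name from the table of expression values: the myosin heavy and light chain, myosin light chain kinase, actin, troponin, tropomyosin, myosin-binding protein C, titin, nebulin, alpha-actinin, myomesin, myozenin, myotilin, leiomodin, telethonin and desmin symbols. This gave 61 members of 25899 genes. The name rule also brings in 15 further paralogs, kept as a group of their own, most of them of non-muscle and smooth muscle cells but with the light chain kinases of striated muscle (Mylk2 and Mylk3) and Mylk4 among them. They stand beside 6 adult fast thick filament genes, 4 fast thin filament genes, 7 slow and cardiac thick filament genes, 6 slow and cardiac thin filament genes, 5 developmental and EOM thick filament genes, 13 giant, Z-disc, M-band and intermediate filament genes and 5 tropomyosins and leiomodins. Acta1, the actin of skeletal muscle, is counted with the fast thin filament genes although it is not confined to fast fibres.

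The study asked whether MuSCs of the head keep their own expression programme once moved into a limb muscle. Donors were C57BL/6;DBA2 F1/JRj mice carrying Tg:Pax7-nGFP, in which the promoter of Pax7, the transcription factor that marks MuSCs, drives a nuclear green fluorescent protein, and they were 7 or 7.6 weeks old. Pre-graft libraries were made from 500 sorted cells of EOM (8 libraries) or TA (8 libraries). Post-graft libraries came from EOM (7 libraries) or TA (7 libraries) cells of the same donors that had been placed into cardiotoxin-injured TA muscles of immunodeficient Rag2-/-;γC-/- recipients on a C57BL/6J background and sorted again by GFP at day 21 of the labels, with 9 cells or more per library and fewer than before grafting. EOM post-graft and TA post-graft cells therefore share the host muscle, and both differ from pre-graft cells in the injury, the transplantation and the number of cells.

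The sarcomere is built from myosin thick filaments and actin thin filaments anchored at the Z-disc and held in register by titin and nebulin. Adult fast fibres, slow fibres, cardiac muscle and developing muscle use different paralogs of the same parts, and EOM fibres are known to hold developmental and EOM-specific myosin in addition to the fast set. Resting MuSCs have no sarcomeres, but they contain desmin and transcripts of some sarcomeric genes.

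The libraries held 3326270 to 14403000 reads in total. Mitochondrial genes took a median of 3.77% of the gene reads in EOM pre-graft, 13.6% in TA pre-graft, 43.7% in EOM post-graft and 38.3% in TA post-graft libraries, and the median of all genes tested was 1.09 (TA) and 1.48 (EOM) log2 units lower after grafting. Changes of the members were therefore also read relative to these medians. The labelled cell type was checked with 12 MuSC markers, all of which had reads in every group: their summed level was 13950 to 18210 RPM (reads scaled to library size) in EOM pre-graft, 13360 to 24090 in TA pre-graft, 1362 to 14770 in EOM post-graft and 349 to 10240 in TA post-graft libraries. The summed level of 10 endothelial genes, all with reads in every group, was 101.7 to 900.9 RPM in EOM pre-graft and 19.66 to 2862 RPM in TA pre-graft libraries, against 236.5 to 6680 RPM (EOM) and 1462 to 7792 RPM (TA) after grafting. Some libraries stood apart. TA pre-graft Exp2-1, Exp2-2 and Exp2-6 had endothelial sums of 1689, 2862 and 2228 RPM. TA post-graft Exp1-3 and Exp2-6 had the highest sums of 10 smooth muscle and pericyte genes (6331 and 6283 RPM). EOM post-graft Exp1-4 had the lowest endothelial sum (236.5 RPM) and the highest MuSC sum (14770 RPM) of its group. Results that rest on them are given with and without them.

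Of the 11 members that were called in the same direction after grafting in both muscles, 8 had a single start in the RefSeq promoter table used here, and the 250 bases before their starts are shown because these genes carry the main result below. Genes that rose are Myl1 (chr1:66945057-66945306, minus strand), Ttn (chr2:76982548-76982797, minus strand), Tnnc2 (chr2:164779735-164779984, minus strand) and Mylpf (chr7:127211358-127211607, plus strand). Genes that fell are Des (chr1:75360042-75360291, plus strand), Tnnt1 (chr7:4515976-4516225, minus strand), Mybpc1 (chr10:88605153-88605402, minus strand) and Myl4 (chr11:104550413-104550662, plus strand). Coordinates are of GRCm38.p6, each sequence runs 5′ to 3′ on the strand of its gene, and capitals mark CANNTG, the E-box core read by the myogenic basic helix-loop-helix factors.
Myl1: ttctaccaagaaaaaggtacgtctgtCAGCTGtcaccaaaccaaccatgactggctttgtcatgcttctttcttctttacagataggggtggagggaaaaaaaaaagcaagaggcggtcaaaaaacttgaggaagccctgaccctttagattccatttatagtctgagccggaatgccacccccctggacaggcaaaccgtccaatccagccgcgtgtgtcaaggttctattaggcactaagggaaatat
Ttn: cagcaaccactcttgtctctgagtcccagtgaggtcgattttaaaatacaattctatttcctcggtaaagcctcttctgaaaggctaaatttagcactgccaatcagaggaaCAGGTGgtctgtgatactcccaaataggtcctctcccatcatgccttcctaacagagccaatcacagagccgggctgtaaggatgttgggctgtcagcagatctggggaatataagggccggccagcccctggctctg
Tnnc2: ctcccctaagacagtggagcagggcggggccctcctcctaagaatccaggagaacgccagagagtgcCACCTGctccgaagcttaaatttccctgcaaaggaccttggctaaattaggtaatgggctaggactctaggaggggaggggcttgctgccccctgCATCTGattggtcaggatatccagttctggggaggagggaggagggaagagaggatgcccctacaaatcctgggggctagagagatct
Mylpf: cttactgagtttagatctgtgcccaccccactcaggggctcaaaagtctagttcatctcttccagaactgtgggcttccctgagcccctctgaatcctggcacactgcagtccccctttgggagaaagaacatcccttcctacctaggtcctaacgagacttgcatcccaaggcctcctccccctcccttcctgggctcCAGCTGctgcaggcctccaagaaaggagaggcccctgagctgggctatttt
Des: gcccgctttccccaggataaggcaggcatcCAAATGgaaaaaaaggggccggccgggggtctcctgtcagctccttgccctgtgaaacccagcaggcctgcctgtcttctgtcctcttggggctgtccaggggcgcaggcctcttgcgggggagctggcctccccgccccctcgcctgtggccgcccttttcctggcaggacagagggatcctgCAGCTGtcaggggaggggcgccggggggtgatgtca
Tnnt1: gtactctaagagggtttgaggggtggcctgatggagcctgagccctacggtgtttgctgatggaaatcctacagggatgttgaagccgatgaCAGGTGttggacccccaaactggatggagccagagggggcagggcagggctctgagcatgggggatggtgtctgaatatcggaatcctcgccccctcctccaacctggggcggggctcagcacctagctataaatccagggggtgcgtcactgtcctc
Mybpc1: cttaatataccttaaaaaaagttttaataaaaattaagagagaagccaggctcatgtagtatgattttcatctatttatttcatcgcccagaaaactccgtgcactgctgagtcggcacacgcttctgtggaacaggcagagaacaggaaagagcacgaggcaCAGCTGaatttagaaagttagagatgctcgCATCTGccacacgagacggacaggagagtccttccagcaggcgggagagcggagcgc
Myl4: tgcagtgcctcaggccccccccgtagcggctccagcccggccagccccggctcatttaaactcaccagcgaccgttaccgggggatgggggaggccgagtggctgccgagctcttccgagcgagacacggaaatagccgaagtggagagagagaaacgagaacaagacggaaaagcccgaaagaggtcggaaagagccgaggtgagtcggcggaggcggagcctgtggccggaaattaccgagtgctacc
The Myl1 window held 1 CANNTG 224 bases before the start, the Mylpf window held 1 at 51 bases, and the Des window held 2 at 220 and 36 bases. CAGCTG, the form found in Myl1, Mylpf, Des and Mybpc1, was absent from the other windows, and the Myl4 window held no CANNTG. The motif reads the same on both strands. Across all 32536 promoter windows of this length, 66.2% held CANNTG and 13.1% held CAGCTG, against 83.7% (41) and 30.6% (15) of the 49 members found in the table. CATTCC, the core bound by TEAD factors, searched on both strands, was in 12.6% of all windows and 32.7% of those of members, and TATAAA, also on both strands, in 12.3% and 18.4%. These are counts of letters in windows, and E-boxes were present both in genes that rose and in genes that fell.

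Before grafting, MuSCs held transcripts of a limited part of the apparatus. Pre-graft libraries held reads of 29 to 38 members in EOM and 30 to 40 in TA, and 13 members, among them Des, Ttn, Neb, Tnnt1, Tpm1, Tpm2 and Tpm3, had more than 3 reads in each of the 30 libraries. Desmin (Des), the intermediate filament protein that links Z-discs, was the member with the highest level per length before grafting: its median was 626.0 RPM per kb of exon in EOM and 647.0 in TA. It was followed by Actn4, a non-muscle alpha-actinin (222.0 and 189.0 RPM per kb), and by Tpm3, a tropomyosin that is made in slow fibres and, as other isoforms, in many other cells (137.0 and 141.0 RPM per kb). The slow troponin T gene Tnnt1 (29.3 and 29.9), the fast alpha-actinin gene Actn3 (27.8 and 30.5) and the slow myosin-binding protein C gene Mybpc1 (24.2 and 25.9) were also among the 10 highest members in both groups, as was skeletal actin Acta1 in TA (53.2). The fast troponin T gene Tnnt3 lay lower, at 5.2 and 4.01 RPM per kb. Together the members took 0.408% ± 0.03 (SD, n = 8) of the RPM in EOM pre-graft, 0.426% ± 0.0403 (n = 8) in TA pre-graft, 0.326% ± 0.0846 (n = 7) in EOM post-graft and 0.423% ± 0.197 (n = 7) in TA post-graft libraries. Outside mitochondrial genes the shares were 0.429%, 0.503%, 0.652% and 0.713%.

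**Figure D1:**
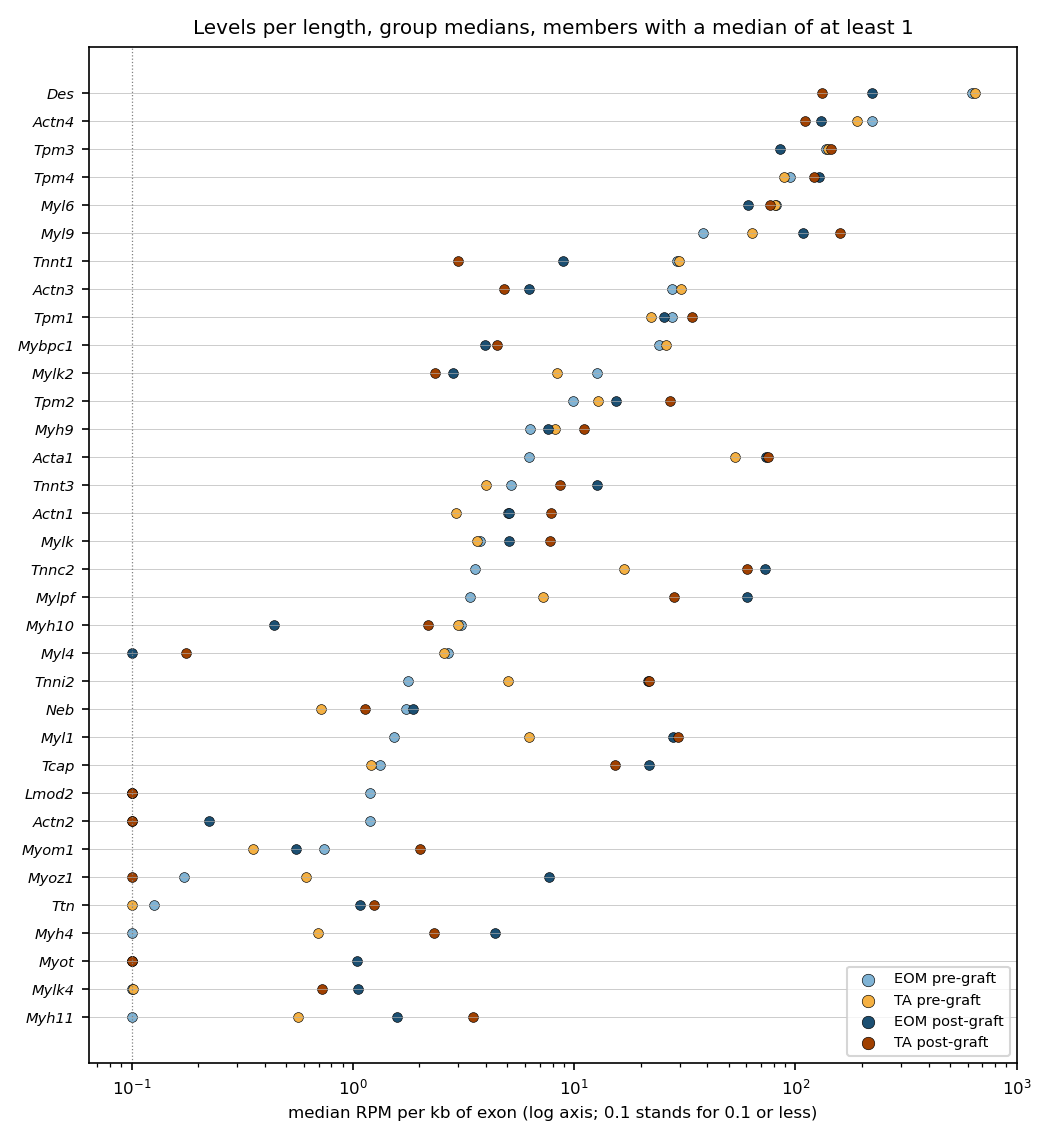
Median level of 34 members in each group, as RPM per kb of exon on a log axis; each point is the median of 7 or 8 libraries, and members whose median was at least 1 in any group are drawn in the order of EOM pre-graft. Des, Actn4 and Tpm3 lead before grafting, Tnnt1, Actn3 and Mybpc1 lie lower after it, and Tnnc2, Mylpf and Myl1 lie higher.

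The order of the most abundant members was not the same after grafting. In RPM per kb, Des remained the highest in EOM (221.0), whereas in TA Myl9, the smooth muscle regulatory light chain, was highest (160.0), followed by Tpm3 (145.0) and Des (132.0). Des, in log2 RPM, ranged from 10.87 through a median of 11.20 to 11.58 in EOM pre-graft and from 10.51 through 11.25 to 11.62 in TA pre-graft libraries. After grafting it ranged from 7.61 through 9.70 to 10.98 in EOM and from 5.92 through 8.96 to 10.83 in TA. The pre-graft groups lay on top of each other, and the lowest post-graft library was TA post-graft Exp2-3, with 74 reads. Actn4 was at 10.42 ± 0.17 (SD, n = 8) log2 RPM in EOM pre-graft and 10.16 ± 0.31 (n = 8) in TA pre-graft, against 9.36 ± 0.70 (n = 7) and 9.17 ± 0.85 (n = 7) after grafting. Tpm3 was at 9.70 ± 0.17 and 9.71 ± 0.29 before and at 8.98 ± 0.53 and 9.51 ± 0.87 after grafting in EOM and TA respectively.

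The developmental, slow and EOM myosin heavy chain genes had few reads or none in most libraries of all 4 groups. Myh13, the myosin heavy chain gene named for extraocular muscle, had no read in the 8 EOM pre-graft and 8 TA pre-graft libraries, and its only reads were 1 in EOM post-graft and 4 in TA post-graft libraries. Myh15, a second myosin of EOM fibres and muscle spindles, had reads in 1 of 8 EOM pre-graft libraries (18 reads, Exp2-2). The embryonic myosin gene Myh3, which regenerating fibres switch on, had none in either pre-graft group or in EOM post-graft. In TA post-graft 3 of 7 libraries had Myh3 reads, 55 of them in Exp2-2 and 10 in Exp2-6. Myh8, the perinatal myosin gene, had at most 9 reads in any library, and Myh7, the slow myosin gene, at most 8. Myh2, the fast 2A myosin gene, had at most 5 reads. The slow troponin I gene Tnni1 had reads in 5 of 8 EOM pre-graft libraries (at most 18) and in 0 of 8 TA pre-graft libraries. Set against a floor of 3 reads per library, the EOM mean was at least 1.15-fold higher. Myh6, the cardiac alpha myosin gene, had no read in any of the 30 libraries. In all, 19 members were too low for a test in any of the 5 comparisons and 42 were tested in at least 1. At these depths the absence of reads limits the level and does not show that the gene was silent.

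Between TA and EOM MuSCs before grafting, skeletal actin (Acta1) and the fast myosin gene Myh4 were called higher in TA, with wide spread. Acta1, the skeletal alpha-actin of the thin filament, ranged from 0 through a median of 19 to 56 reads in EOM pre-graft and from 5 through 154.5 to 281 reads in TA pre-graft libraries. All TA libraries but Exp1-4 (5 reads) held 24 reads or more, whereas 3 of the EOM libraries held over 30, so that the groups overlapped. Acta1 was 2.89 ± 0.75 (SE) log2 units higher in TA (adjusted p = 0.0185, limma). Myh4, the fast 2B myosin heavy chain gene, ranged from 0 through 1.5 to 13 reads in EOM and from 2 through 9 to 61 reads in TA, and was 2.63 ± 0.69 higher (adjusted p = 0.0196). Its highest EOM library, Exp2-2, lay above 5 of the 8 TA libraries. The filter on low values asks for log2 RPM above 1 in at least 4 libraries. Fewer than 4 EOM libraries reached this for Myh4, so it passed only through its TA libraries.

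The third member called higher was Myh11, the myosin heavy chain of smooth muscle. It had 1 read in all 8 EOM pre-graft libraries together, so it passed the filter on low values only through TA libraries. In TA pre-graft it ranged from 0 through 7.5 to 292 reads, of which nearly all lay in Exp2-1 (292 reads), Exp2-2 (152) and Exp2-6 (224), the 3 TA libraries with the highest sums of endothelial genes. The other 5 TA libraries held 13, 2, 0, 0 and 0 reads. Its difference of 3.93 ± 1.09 log2 units (adjusted p = 0.0266) depends on the 0.9 read given to a library without a read, and other smooth muscle members did not pass the test. Myl9, the smooth muscle regulatory light chain, differed by 0.72 ± 0.51 (adjusted p = 0.391) and Mylk, the smooth muscle myosin light chain kinase, by −0.22 ± 0.85 (adjusted p = 0.895). In these 3 libraries Myl9 had 211, 597 and 960 reads and Mylk 278, 279 and 589. The part of other cell types in these differences was not tested.

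**Figure D2:**
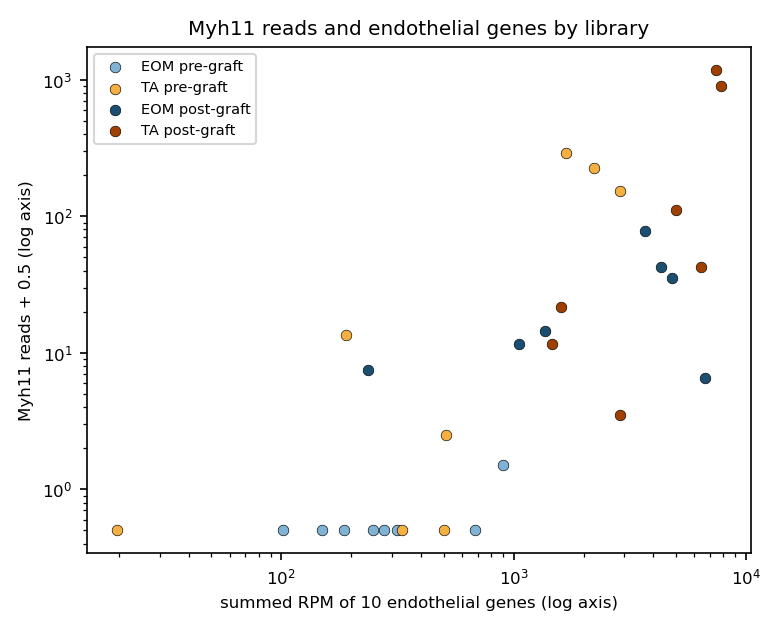
Reads of Myh11 plus 0.5 against the summed RPM of 10 endothelial genes, both on log axes, with 1 point per library. The 3 TA pre-graft libraries at 152 to 292 reads lie to the right of all other pre-graft libraries, and TA post-graft Exp1-3 (1178 reads) and Exp2-6 (904 reads) lie highest.

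Nebulin alone of the 36 tested members was called lower in TA before grafting. Neb, the ruler of the thin filament, ranged from 70 through a median of 87 to 358 reads in EOM and from 9 through 28.5 to 86 reads in TA. It was 1.65 ± 0.48 log2 units lower in TA (adjusted p = 0.037), a call that was lost in 17 of 29 alternatives, among them scaling without mitochondrial genes (adjusted p = 0.0709). With 3 members called higher and 1 called lower of 36 tested, the background was 1.26% of all genes called higher and 3.31% called lower (4.56% in either direction). No member separated the groups without overlap, as 0.477% (higher in TA) and 1.81% (lower in TA) of all genes did. Without the 3 TA libraries high in endothelial genes no member was called in either direction: Acta1 was then 2.56 higher (adjusted p = 0.131), Myh4 2.30 higher (adjusted p = 0.12), Neb 1.08 lower (adjusted p = 0.179) and Myh11 was too low to be tested. With the libraries that failed quality control included, none was called either. These include EOM pre-graft Exp1-1, which held 302 recovered reads.

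Other fast members did not pass the test. Myl1, the fast essential light chain, was 2.30 ± 0.81 log2 units higher in TA (adjusted p = 0.0819), Tnni2, the fast inhibitory troponin, 1.76 ± 0.85 (adjusted p = 0.206), Tnnc2, the fast calcium-binding troponin, 1.70 ± 0.89 (adjusted p = 0.244), Myh1, the fast 2X myosin gene, 1.47 ± 0.72 (adjusted p = 0.21) and Mylpf, the fast regulatory light chain, 1.24 ± 0.68 (adjusted p = 0.268). Tnnt3, the fast troponin T gene, was −0.86 ± 0.52 (adjusted p = 0.31). Members of the state shared by both muscles lay close to 0: Des 0.01 ± 0.16, Tnnt1 −0.23 ± 0.30, Mybpc1 0.03 ± 0.30, Actn3 0.07 ± 0.32 and Ttn −0.05 ± 0.58. The median member differed by −0.05, against −0.30 for all genes tested, and 25 of 36 members lay above that median. In bulk libraries of this kind, more cells that hold a transcript and more transcript per cell cannot be told apart.

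**Figure D3:**
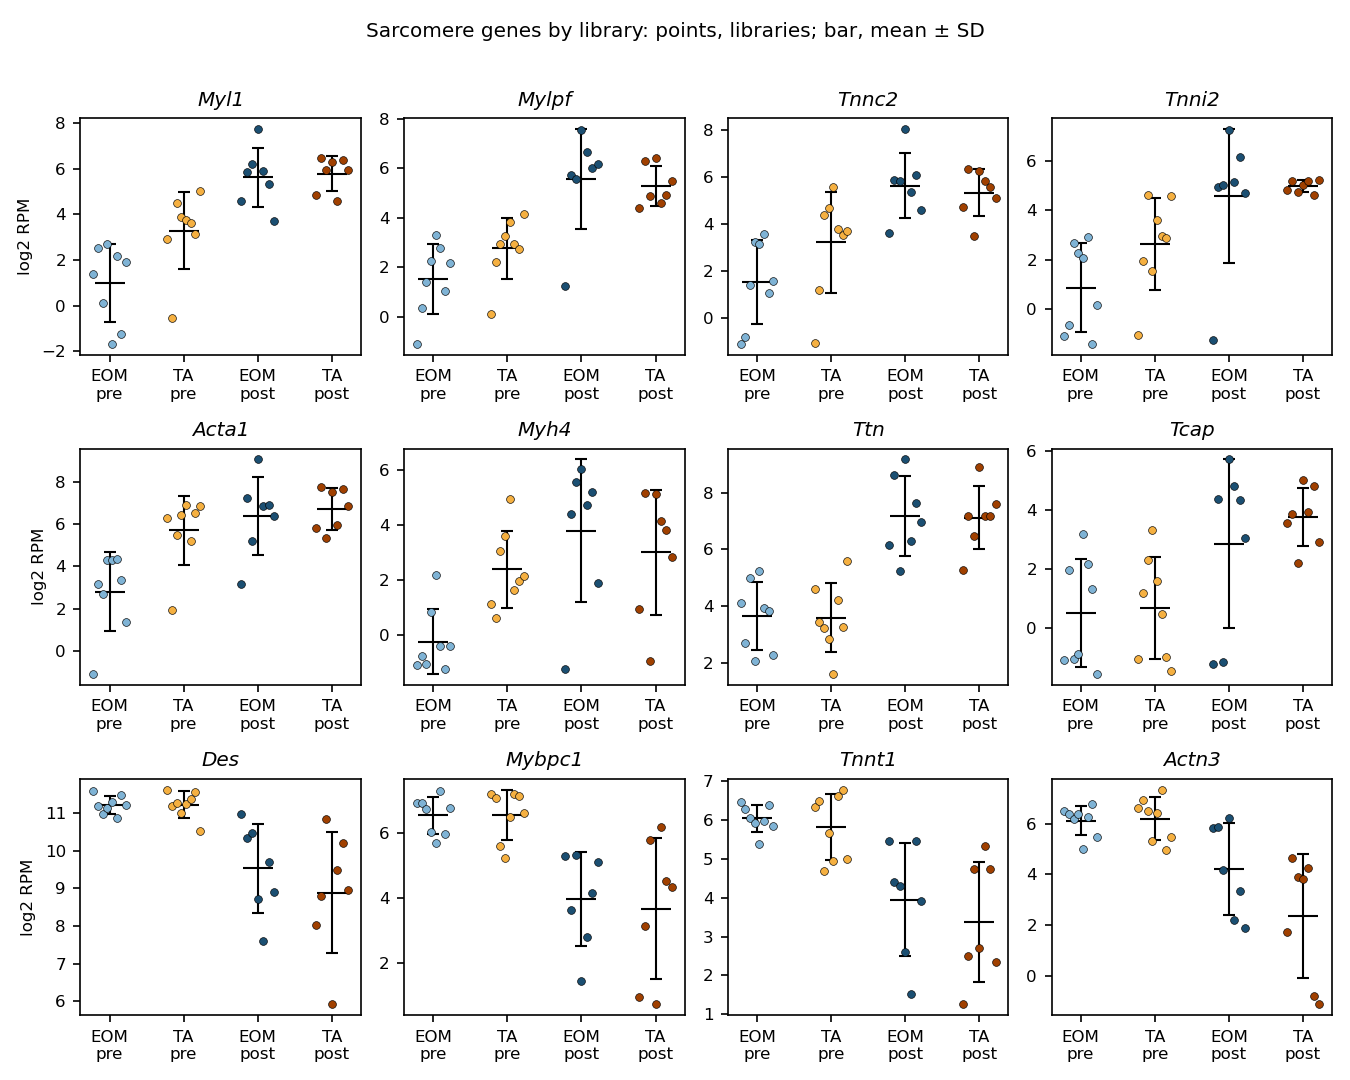
Log2 RPM of 12 members in each library (points), with the mean and SD of each group; the vertical axes differ between panels and do not start at 0. The upper 8 genes lie higher after grafting in both muscles or in EOM, EOM post-graft Exp1-4 is the low point for Mylpf and Tnni2, and the 4 genes of the lowest row lie lower after grafting.

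After grafting, TA cells held more transcript of fast light chains, fast troponins, titin and telethonin, and less of desmin, slow troponin T, slow myosin-binding protein C and Actn3. Of 37 members tested, 6 were called higher and 6 lower, beside 3.79% of all genes called higher and 30.9% called lower. The median member changed by 0.64 log2 units, against −1.09 for all genes, and 30 of 37 members lay above that median.

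Ttn, the giant spring that spans from Z-disc to M-band, had the largest rise. It ranged from 6 through a median of 17 to 120 reads in TA pre-graft and from 81 through 230 to 593 reads in TA post-graft, and rose by 3.53 ± 0.57 (SE; adjusted p = 0.000365). The groups overlapped through 1 pre-graft library. Tcap, telethonin, which caps titin at the Z-disc, had reads in 4 of 8 libraries before (0, 1.5 and 24 at the lowest, median and highest) and in 7 of 7 after grafting (9, 25 and 44), a rise of 3.09 ± 0.84 (adjusted p = 0.00943). Mylpf ranged from 2 through 13 to 44 reads before and from 43 through 57 to 125 after grafting. In log2 RPM its highest pre-graft library (4.16) lay below its lowest post-graft library (4.40), and it was the one member to rise without overlap, beside 0.214% of all genes. Its rise was 2.51 ± 0.65 (adjusted p = 0.00693). Myl1 rose by 2.49 ± 0.67 (adjusted p = 0.00866), from a median of 21.5 to 118 reads. Tnni2 held 38 to 73 reads in the 7 post-graft libraries, a spread of 0.25 log2 units (SD), and rose by 2.34 ± 0.74 (adjusted p = 0.0196). Tnnc2 rose by 2.11 ± 0.79 (adjusted p = 0.0403), a call that ended when any of 9 single libraries was left out.

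Of the 6 members that fell in TA, all but Myl4 had more than 3 reads in every TA pre-graft library. Other members with high levels before grafting, such as Tpm3, were not called lower. Actn3, the alpha-actinin of fast Z-discs, ranged from 56 through a median of 135.5 to 185 reads before and from 0 through 17 to 40 reads after grafting. It fell by 3.86 on the log2 scale (SE 0.80, adjusted p = 0.00196) and was the one member to fall without overlap, beside 4.97% of all genes. Mybpc1 ranged from 89 through 178 to 273 reads before and from 2 through 36 to 128 reads after grafting, and fell by 2.92 (SE 0.69, adjusted p = 0.00457). Tnnt1 went from a median of 97.5 to 10 reads, falling by 2.44 (SE 0.62, adjusted p = 0.00657), and Des from 4625.5 to 984, falling by 2.33 (SE 0.49, adjusted p = 0.00223). Myl4, the essential light chain of atrial and developing muscle, had reads in 7 of 8 libraries before (median 22.5) and in 4 of 7 after grafting (median 1), and fell by 2.71 (SE 0.93, adjusted p = 0.0284). Mylk2, the skeletal muscle myosin light chain kinase, fell by 1.85 (SE 0.70, adjusted p = 0.042), a call that was kept in 11 of 29 alternatives and ended when any of 10 single libraries was left out. Relative to the median of all genes these falls were smaller, at 2.77 for Actn3, 1.83 for Mybpc1, 1.62 for Myl4, 1.35 for Tnnt1, 1.25 for Des and 0.77 for Mylk2. With libraries centred on their own median, or scaled without mitochondrial genes, 3 of these 6 calls remained (Actn3, Mybpc1 and Des) and the 6 rises were among 12 and 11 called. With edgeR and DESeq2, which rescale the libraries in their own way, 1 fall was called (Des).

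Other members of TA did not pass the test. Acta1 was at 5.70 ± 1.63 (SD, n = 8) log2 RPM before and 6.69 ± 0.99 (n = 7) after grafting, a difference of 0.99 ± 0.60 (SE, adjusted p = 0.18), Myh4 differed by 0.63 ± 0.94 (adjusted p = 0.596), Tnnt3 by 1.67 ± 0.73 (adjusted p = 0.073) and Neb by 1.01 ± 0.68 (adjusted p = 0.23). Myh1 differed by 0.24 ± 0.97 (adjusted p = 0.85), and Actc1, the cardiac actin gene, by −0.82 ± 0.87 (adjusted p = 0.45). In the group of further paralogs, of which 13 were tested, none of the non-muscle or smooth muscle genes was called, and Actn4 fell by less than 2-fold (−0.98 ± 0.35, adjusted p = 0.0341). Myh11 ranged from 3 through 42 to 1178 reads after grafting and differed by 2.48 ± 1.31 (adjusted p = 0.129), and Mylk by 1.74 ± 1.00 (adjusted p = 0.163). The libraries highest in both, Exp1-3 (Myh11 1178 reads, Mylk 1352) and Exp2-6 (904 and 1777), were those highest in smooth muscle and pericyte genes, of which 4 of 10 rose in TA. Without them 5 members were called higher and 6 lower, with Tnnc2 (adjusted p = 0.0536) and Mylk2 (−1.30, adjusted p = 0.132) no longer called. Without the 3 TA pre-graft libraries high in endothelial genes, 10 were called higher, among them the same 6, and 4 lower. Within Experiment 2 alone (6 libraries before and 6 after) 4 rises and 4 falls were called.

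In EOM cells moved into TA muscle, the rise of fast genes was broader. Of 39 members tested, 12 were called higher and 9 lower, beside 3.51% of all genes called higher and 55.8% called lower. Of the rises, Myot, Myh11, Mylk4 and Myh1 had no pre-graft library above the log2 RPM of 1 that the filter asks for. For Myh4 and Myoz1, fewer than the 4 libraries that it asks for lay above it before grafting. All of these could be tested only through their post-graft libraries. Lmod2 and Myl4, among the falls, could be tested only through their pre-graft libraries. At an unadjusted p under 0.05 there were 24 members beside 67.8% of all genes. The median member changed by 0.20 log2 units, against −1.48 for all genes, and 29 of 39 lay above that median. All 4 tested adult fast thick filament genes and 3 of 4 genes grouped as fast thin filament (Tnnc2, Tnni2 and Acta1) rose. Of the thick filament genes, Myh1 and Myh4 are among those tested only through post-graft libraries. Actn3, the alpha-actinin of fast Z-discs, fell in both muscles.

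Myl1 had at most 12 reads in the 8 EOM pre-graft libraries (0, 7 and 12 at the lowest, median and highest) and 25, 66 and 315 reads in the 7 EOM post-graft libraries. The groups did not overlap, as for 0.176% of all genes, and Myl1 rose by 4.63 ± 0.79 (SE; adjusted p = 0.000327). Tnnc2, from 0, 6.5 and 32 to 26, 72 and 389 reads, rose by 4.11 ± 0.80 (adjusted p = 0.000782), with the groups just apart in log2 RPM (3.59 and 3.62 at the facing ends). Mylpf rose by 4.02 ± 0.84 (adjusted p = 0.00113), from a median of 6.5 to 95 reads, and Tnni2 by 3.69 ± 1.05 (adjusted p = 0.00693), from 5.5 to 62. EOM post-graft Exp1-4 held 5 reads of Mylpf and 0 of Tnni2, where the other 6 libraries held at least 60 and 35 reads respectively, and both calls held when it was left out.

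Fast myosins and skeletal actin rose in EOM as well. Myh4 ranged from 0 through 1.5 to 13 reads before and from 0 through 43 to 98 reads after grafting, and rose by 4.04 ± 0.95 (adjusted p = 0.00237). Myh1 went from a median of 0 to 9 reads, with a highest value of 59, and rose by 2.93 ± 0.91 (adjusted p = 0.0109). Acta1 went from 0, 19 and 56 to 19, 157 and 779 reads and rose by 3.58 ± 0.83 (adjusted p = 0.00224). Only EOM post-graft Exp1-4 lay within the pre-graft range of Acta1, with 19 reads. Ttn rose by 3.52 ± 0.61 (adjusted p = 0.00036), from 7, 33.5 and 109 to 75, 235 and 855 reads, a size like that in TA. Myoz1, a calcineurin-binding protein of fast Z-discs, rose by 2.51 ± 1.03 (adjusted p = 0.0399) and was called in 11 of 27 alternatives. Myot, myotilin of the Z-disc, had 0 reads in all 8 EOM pre-graft libraries and up to 13 in 4 of 7 post-graft libraries, a mean at least 1.51-fold higher against a floor of 3 reads per library. Tcap, with 5 of 7 libraries above 0, did not pass the test (2.35 ± 1.09, adjusted p = 0.0651), nor did Tnnt3 (0.67 ± 0.81, adjusted p = 0.467), Neb (0.36 ± 0.47, adjusted p = 0.502) or Actc1 (0.59 ± 0.88, adjusted p = 0.554).

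From the paralog group, Myh11 was called higher in EOM. It held 6 to 78 reads (median 14) in the 7 post-graft libraries, after 1 read in all pre-graft libraries together, without overlap, with a fitted difference of 4.76 ± 0.63 (adjusted p = 5.35e-05) that depends on the value given to libraries without a read. Mylk4, a kinase of the myosin light chain kinase family, went from at most 4 reads to 0, 14 and 51 reads and rose by 3.51 ± 0.83 (adjusted p = 0.00247). Of 9 smooth muscle and pericyte genes tested in EOM, 1 rose (Rgs5) and 2 fell (Acta2 and Notch3), their summed level going from 902.9 to 1260 RPM before to 544.8 to 5330 RPM after grafting, with Cnn1 at 0 in both groups. Of 10 endothelial genes 9 rose in each muscle. The part of such cells in the rise of any member was not tested.

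The falls in EOM depended on the scaling. Myl4 had 23 to 32 reads in all 8 pre-graft libraries and reads in only 3 of 7 post-graft libraries (21, 6 and 1), and fell by 3.39 (SE 0.77, adjusted p = 0.00185). Mybpc1 ranged from 109 through 193.5 to 422 reads before and from 4 through 21 to 83 after grafting, without overlap, as did 11.1% of all genes, and fell by 2.59 (SE 0.53, adjusted p = 0.00103). Tnnt1 fell by 2.09 (SE 0.52, adjusted p = 0.00332), from a median of 138.5 to 29 reads, and Des by 1.68 (SE 0.38, adjusted p = 0.00183), from 5384 to 969. Actn3 fell by 1.91 (SE 0.61), Myh10, a non-muscle myosin, by 2.15 (SE 0.87), Mylk2 by 1.74 (SE 0.66), Lmod2, a leiomodin that lengthens thin filaments, by 1.67 (SE 0.67) and Actn4 by 1.06 (SE 0.27), with adjusted p from 0.00379 to 0.0379. Lmod2 had no read in any post-graft library, at least 1.49-fold lower against a floor of 3 reads per library. Relative to the median of all genes, Des lay 0.21 lower, Tnnt1 0.61 lower, Mybpc1 1.11 lower and Myl4 1.92 lower, and Actn4 lay 0.42 higher. With libraries centred on their median none of the 9 was called, and scaled without mitochondrial genes 2 were (Myl4 and Mybpc1), while the 12 rises were kept among 16 called with either scaling. The sign turned for Actn4 under both scalings and for Mylk2 with edgeR and DESeq2. Within Experiment 2 alone (5 libraries before and 6 after) 13 members were called higher and 8 lower, of which 11 and 7 were the same.

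**Figure D4:**
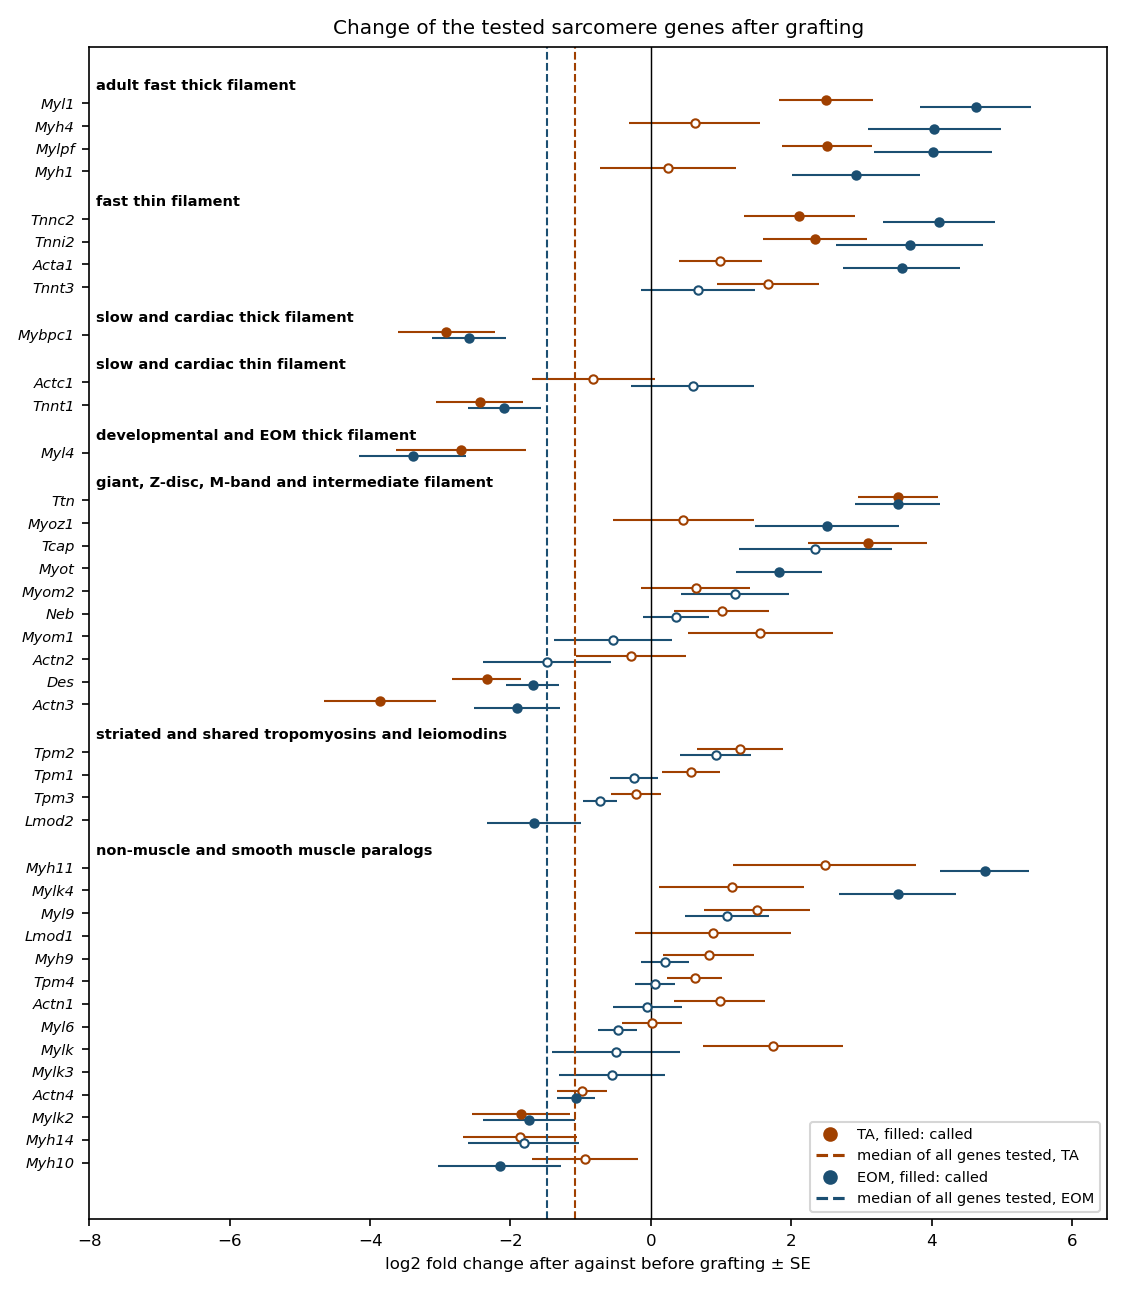
Log2 fold change after against before grafting of each tested member (points) with its standard error (bars), grouped by role, for TA (orange) and EOM (blue); filled points passed the test and dashed lines mark the median of all genes tested, −1.09 in TA and −1.48 in EOM. Fast thick and thin filament genes lie to the right of 0, and Mybpc1, Tnnt1, Myl4, Des and Actn3 to the left in both muscles.

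Both muscles shared 5 rises (Myl1, Ttn, Tnnc2, Mylpf and Tnni2), which made 83.3% of the members called higher in TA and 41.7% of those in EOM. They also shared 6 falls (Des, Mylk2, Tnnt1, Mybpc1, Myl4 and Actn3), which were all 6 called lower in TA and 66.7% of those called lower in EOM. These comparisons use separate libraries, from donors in common. Of all genes, 3.79% were called higher and 30.9% lower in TA, and 3.51% and 55.8% in EOM. With libraries centred on their median, none of the shared falls was called in EOM. Of the shared rises, that of Tnnc2 is the least certain. Its call in TA ended when some single libraries were left out, and it shares exon bases with Ube2c, which rose in both muscles. Myl1 and Ttn were called in all alternatives in both muscles, Mylpf and Des in all 29 in TA, and Tnnc2 and Acta1 in all 27 in EOM. Myh11 was called in EOM in the 26 alternatives that tested it, each time through its post-graft libraries alone.

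Because these shifts mix with the change of scale, pairs of paralogs that serve the same place in the filament were compared within each library, where no scaling enters. The pairs were picked after the values were seen. Tnnt1, Myl1 and Myl4 had already been called after grafting, whereas Tnnt3 was not called in any comparison. The shares are therefore a description with no test, and a higher Tnnt3 share can come from less Tnnt1. Tnnt3 made 15.8% ± 4.28 (SD, n = 8) of the reads per kb of Tnnt3 and Tnnt1 in EOM pre-graft and 14.7% ± 11.5 (n = 8) in TA pre-graft libraries. After grafting it made 57.1% ± 33.2 (n = 7) in EOM and 62.4% ± 30.4 (n = 7) in TA. The post-graft libraries spread from 0% (EOM Exp1-4, without a Tnnt3 read) to 94.4%, and 4 of 7 TA libraries lay above 80%. The mean share was 41.3 percentage points higher after grafting in EOM and 47.8 in TA, with groups that overlapped. The muscles differed by −1.08 points (TA minus EOM) before and 5.39 after grafting.

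Myl1 made 29.8% ± 19.2 (n = 8) of the reads per kb of Myl1 and Myl4 in EOM pre-graft and 64.3% ± 30.3 (n = 8) in TA pre-graft libraries. In both post-graft groups it made 96.7%, with an SD of 5.39 in EOM and 6.29 in TA (n = 7 each). TA pre-graft libraries ranged from 0% to 100%, and EOM pre-graft libraries did not exceed 51.7%. The mean share was 34.5 points higher in TA before grafting, 26.1 without the 3 TA libraries high in endothelial genes and 24.5 with failed libraries included. After grafting it was 66.9 points higher in EOM, without overlap, and 32.4 points higher in TA, with overlap. The muscles then differed by −0.00606 points.

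**Figure D5:**
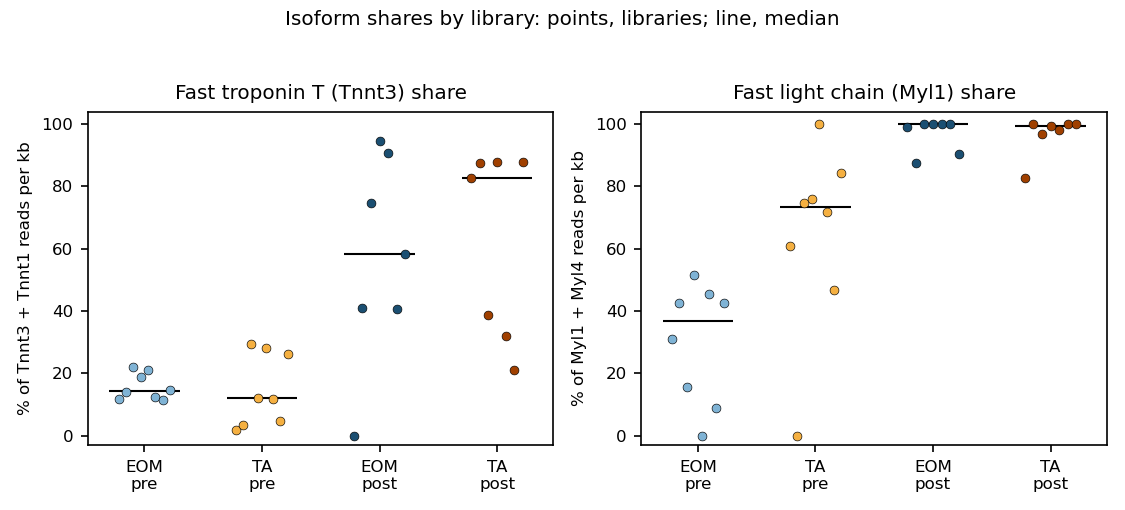
Share of Tnnt3 in the reads per kb of Tnnt3 and Tnnt1 (left) and of Myl1 in those of Myl1 and Myl4 (right), in percent, with 1 point per library and a line at the median. The Tnnt3 share is at most 29.3% before grafting and spreads up to 94.4% after it, and the Myl1 share is at least 82.7% in all 14 post-graft libraries.

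Once both populations had been in TA muscle, no sarcomere gene told them apart by the test. Of 38 members tested, 0 were called, as were 0 of all 12377 genes tested (0% in each direction), and no member separated the groups without overlap, as 0.0162% of all genes did (higher in TA). At an unadjusted p under 0.05 there was 1 member (Mylk, 2.01 ± 0.96 higher in TA, p = 0.0434, adjusted p = 1.0 by limma) beside 3.65% of all genes, and edgeR and DESeq2 called 0 members in each direction. Myl1 was at 5.62 ± 1.28 (SD, n = 7) log2 RPM in EOM and 5.79 ± 0.76 (n = 7) in TA, Ttn at 7.16 ± 1.41 and 7.12 ± 1.11, Acta1 at 6.39 ± 1.83 and 6.69 ± 0.99, and Myh4 at 3.80 ± 2.60 and 3.01 ± 2.28. The 95% interval of the difference, TA minus EOM in log2 units, ran from −1.06 to 1.39 for Myl1, from −1.22 to 1.13 for Ttn and from −3.04 to 1.47 for Myh4. The libraries thus left room for differences of more than 2-fold in these 3 genes.

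The wider EOM response was not shown to differ from that of TA. In the fit of all 4 groups, 0 of 42 members were called for the difference between the EOM and TA graft changes, beside 0.0554% of all genes called higher and 0.152% called lower in EOM, and 3 members had an unadjusted p under 0.05 against 7.22% of all genes. These were Myh4 (3.41 ± 1.36 more rise in EOM, p = 0.0165, adjusted p = 0.577 by limma), Acta1 (2.59 ± 1.07, p = 0.0201, adjusted p = 0.598) and Myl1 (2.14 ± 1.05, p = 0.0479, adjusted p = 0.692). This comparison shares its pre-graft libraries with the comparison of the muscles before grafting. By edgeR and by DESeq2, 0 members were called in either direction.

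Genes outside the name rule moved in both directions. Among 30 further sarcomere and Z-disc genes in the table, 3 rose and 4 fell of 22 tested in TA after grafting, and 1 rose and 7 fell of 19 in EOM, where 3.79% (TA) and 3.51% (EOM) of all genes rose and 30.9% and 55.8% fell. Xirp2, an actin-binding protein of the fibre's attachment sites, rose by 2.70 ± 0.88 (adjusted p = 0.0224) in TA and 3.38 ± 0.85 (adjusted p = 0.00344) in EOM. Xirp2 had no read in any EOM pre-graft library, so in EOM it was tested only through post-graft libraries. Its EOM difference depends on the value given to libraries without a read. Ankrd1, a stress-responsive titin partner, fell by 2.73 (SE 0.85, adjusted p = 0.0181) and by 4.19 (SE 0.73, adjusted p = 0.000389). Of 18 tested myofibre genes outside the sarcomere, 1 rose and 3 fell in TA, and 5 rose and 5 fell in EOM, led by Pvalb, the fast-fibre calcium buffer (a rise of 4.49 ± 0.81, adjusted p = 0.000459), and Ckm, muscle creatine kinase (3.99 ± 1.06, adjusted p = 0.00467). Sln, sarcolipin, which inhibits the calcium pump, was 4.30 lower in TA than in EOM before grafting (SE 0.83, adjusted p = 0.0018) and fell by 6.41 (SE 0.66, adjusted p = 5.34e-06) in grafted EOM cells. Before grafting 1 of 18 tested sarcomere and Z-disc genes was higher in TA (Unc45b, a myosin chaperone, 3.01 ± 0.78, adjusted p = 0.0182) and 1 lower (Pdlim7, an actin-binding Z-disc adaptor, −1.86 ± 0.13, adjusted p = 2.85e-09).

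Markers of the other states and cells moved at the same time. Falls of these lists stand beside the 30.9% (TA) and 55.8% (EOM) of all genes that fell, and rises beside 3.79% and 3.51%. Of 12 MuSC markers, 11 fell in TA and 10 in EOM after grafting. Of 7 tested genes of differentiating myoblasts, 1 rose and 4 fell in TA and 1 rose (Mef2c, 4.38 ± 1.05, adjusted p = 0.00264) and 3 fell in EOM, with Myog, the differentiation factor, at 0 reads in TA post-graft libraries. The summed level of the myoblast list was 593.7 to 893.2 RPM in EOM pre-graft, 562.3 to 1068 in TA pre-graft, 171.9 to 1707 in EOM post-graft and 177.2 to 564.5 in TA post-graft libraries, and Cdh15 belongs to both lists. Of 9 tested fibro-adipogenic genes in TA, 5 rose and 2 fell, and of 10 in EOM 1 rose and 3 fell. Of macrophage genes, 1 rose of 3 tested in TA and 1 fell of 8 in EOM, and of 7 Schwann cell genes 5 fell in EOM and none in TA. Their part in the changes of the sarcomere genes was not tested.

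Shared sequence limits some members. The fast, embryonic, perinatal and EOM myosin heavy chain genes lie side by side on chromosome 11, from Myh3 (chr11:67078300-67102291) to Myh13 (chr11:67321658-67371586), and 20.9% of the 75-base stretches of Myh1 exons and 9.68% of those of Myh4 occur in another gene, so that reads may be split between them. Tnnc2 is the most affected: 35% of its stretches are shared and 74% of its exon bases lie in exons annotated to Ube2c, a cell cycle ubiquitin-conjugating enzyme, and the libraries were not counted by strand. Ube2c rose by 2.13 ± 0.78 (adjusted p = 0.0376) in TA and 3.75 ± 0.79 (adjusted p = 0.00119) in EOM, and reads of the shared exons cannot be told apart. Mylpf, Myh11 and Myh15 shared no stretch with another gene, as was so for 33 members in all, and Ttn shared 0.0739% of its stretches.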

How the data were processed

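RNA of sorted MuSCs was measured by G&T-seq, in which cDNA is amplified without molecular identifiers, so that counts carry amplification noise. Per the labels and methods, the authors trimmed reads (Trim Galore 0.4.4) and mapped them to GRCm38 (HISAT2 2.1.0). The deposited values were log2 RPM (reads scaled to library size), in which a gene without a read stands at 0.9 read. Whole counts were recovered from the deposited values (99.99316% within 0.02 of a whole number) and describe depth and detection. Of 40 RNA libraries, the 30 that passed the study's quality control were used, and 40 bisulfite libraries were not used here. The 30 libraries are from 9 of the study's 10 donors, and p-values measure the spread between these libraries.

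Of 25965 rows, 25899 genes were kept, 1 row for each name (the one with more reads). Comparisons were fitted with limma 3.58.1 (R 4.3.3, empirical Bayes with trend) across all genes with log2 RPM above 1 in at least 4 libraries, with Benjamini-Hochberg adjustment over all genes tested. Genes were called at an adjusted p under 0.05 and a log2 change over 1. Alternatives used edgeR 4.0.16 and DESeq2 1.42.0 on recovered counts, other scalings, filters, the donor as a block and single libraries left out, and the fits were tested on simulated data. Members were named by a fixed rule (up to 10 called members per comparison by size, 20 listed genes, the 3 highest per group), and others, with the alternatives that leave out several libraries, were chosen after their values were seen. The members and lists were chosen with earlier results of these data known. Paralog shares are percent of reads per exon length, from the counts recovered from the deposited values, with no test. The donors' numbers did not pair the libraries by the check used: 5 of 39 same-donor pairs correlated over 0.1 (median 0.033).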

Additional observations from a re-analysis of the deposited data

Results flagged for a closer look

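In 92 groups of libraries (23 called members in 4 groups), 8 had an extreme library whose gap to the next was large for the range of its group. Chance flags about 1 in 20 groups where values follow a normal distribution, which was not checked for these values with a floor. TA pre-graft Exp1-4 was low for Myl1, at −0.53 log2 RPM (0 reads) where the next library was at 2.92, and for Acta1, at 1.94 (5 reads) where the next was at 5.22. EOM post-graft Exp1-4 was low for Mylpf, at 1.24 (5 reads, next 5.58), and for Tnni2, at −1.24 (0 reads, next 4.68). Myh10 was low in TA pre-graft Exp2-6, at 2.61 (15 reads, next 4.69), and in TA post-graft Exp2-5, at −0.65 (1 read, next 3.04). Myl4 was low in TA pre-graft Exp2-3, at −1.14 (0 reads, next 3.39). Actn4 was low in TA post-graft Exp2-3, at 7.34 (197 reads, next 9.21).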

How the results depend on the processing

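The rises of Myl1 and Ttn after grafting were called under every alternative run in both muscles, as was the fall of Des in TA. Most other falls, and the differences between muscles before grafting, depended on the setting, and the cause was not tested. Between TA and EOM before grafting, 3 members were called higher, and 1 with a stricter filter, with Experiment 2 alone and with 1 fit over 4 groups, 5 with DESeq2, and 0 with failed libraries included or without the 3 TA libraries highest in endothelial genes. The 1 called lower became 0 under the last 2 of these, with Experiment 2 alone, scaling without mitochondrial genes, centring, edgeR, DESeq2 and 1 fit over 4 groups. After grafting in TA, 6 were called higher, and 11 scaled without mitochondrial genes, 12 centred, 14 with edgeR, 18 with DESeq2 and 10 without those 3 TA libraries. The 6 called lower became 3 under both scalings and 1 with edgeR or DESeq2. In EOM, 12 were called higher, and 7 with a stricter filter, 5 with failed libraries included, 20 with edgeR and 22 with DESeq2. The 9 called lower became 2 scaled without mitochondrial genes, 0 centred, 1 with edgeR (Lmod2) and 1 with DESeq2 (Mybpc1). The higher share of Myl1 in TA before grafting was 24.5 points with failed libraries included and 26.1 points without the 3 TA libraries. With failed libraries included, members took 0.357% of RPM in EOM pre-graft. Outside mitochondrial genes they took 0.503% in TA pre-graft, 0.652% in EOM post-graft and 0.713% in TA post-graft. The failed libraries include EOM pre-graft Exp1-1, with 302 recovered reads, where a gene without a read stands at 10.74 log2 RPM. The part of this library in the results with failed libraries included was not tested.

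Leaving out single libraries gave 2 to 4 members higher and 0 to 1 lower between the muscles before grafting, 5 to 7 and 4 to 7 in TA after grafting, 10 to 15 and 6 to 9 in EOM, and 0 in the other comparisons. The Tnnt3 share differed by −3.17 to 0.759 points before grafting, 43.5 to 54.7 in TA, 35.1 to 50.8 in EOM and −4.12 to 12.3 after grafting. The Myl1 share differed by 29.4 to 43.7, 23.2 to 37.5, 62.7 to 70.1 and −1.53 to 2.32. In EOM, signs turned for Mylk2 (0.036 with edgeR, 0.092 with DESeq2), Actn4 (0.004 without mitochondrial genes, 0.189 centred, 0.144 with edgeR, 0.25 with DESeq2) and Myh10 (0.101 with DESeq2). The donor as a replicate block changed no count of called members (consensus correlation 0.1386, 0.0514 and −0.0274 in the first 3 comparisons). Depth limits the members with few reads, and 19 members were too low for a test in any comparison.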
